A study of Mus musculus with 6 samples.

Results

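The genes described here are 32 interferon-response and major histocompatibility complex (MHC) class I genes of the mouse aorta, taken by name from a table of 35275 genes; every one of the 32 was found. RNA was sequenced from whole aorta in 6 libraries, 3 labelled Wild-type and 3 labelled EC-Jag1KO, in which the Notch ligand gene Jag1 is deleted in endothelial cells. The series asks how loss of endothelial Jag1 changes the aortic wall. The sources used here do not state the age, strain or sex of the animals, the promoter behind the deletion or whether each library is 1 animal, so the p-values describe the spread of these libraries, which may be technical. Values are FPKM, fragments scaled to gene length and to the reads in genes of each library, which allows levels to be compared between genes.

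Interferons are secreted warning proteins. Type I interferon acts through a pair of receptor chains and the kinases JAK1 and TYK2 to bring a complex that holds STAT2 and IRF9 to a promoter element called the interferon-stimulated response element (ISRE), while interferon gamma has a receptor of its own. Both raise the MHC class I pathway, in which the immunoproteasome cuts proteins, the TAP transporter moves the peptides into the endoplasmic reticulum, and a class I heavy chain with beta-2-microglobulin displays them to CD8 T cells. Vessel wall cells, endothelium above all, carry class I at rest and can be induced to carry more.

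Promoter sequence was examined first, because the ISRE is the feature by which many of these genes are recognised. RefSeq promoter windows (GRCm38.p6, the assembly called mm10, from 250 bases before to 50 bases after the gene start) were matched by symbol for 28 of the 32 genes; Usp18, Rtp4, Ifi27 and Tap2 had no entry. The ISRE core was searched as GAAA, any 2 bases and GAAA again, on both strands, with overlapping matches counted separately. It was present in 14 of 28 genes (50%), against 1079 of 27025 genes in the whole promoter table (3.99%). By role, it was present in 3 of 3 guanylate-binding protein genes, 6 of 10 antiviral genes, 2 of 3 Ifitm genes and 2 of 5 signalling genes, and in 1 of 7 class I genes, B2m. In Ifih1 and Ifitm3 the matches lay after the gene start. The gamma-activated sequence, searched as TTC, any 3 bases and GAA, was present in 7 of 28 genes (25%), against 9.55% of all genes. A match is a string of letters and not a shown binding site, and a window without one says nothing about binding elsewhere. The 160 bases upstream of the start are printed for 6 genes, 5' to 3' on the gene's own strand with each ISRE core in capitals, to show a dense antiviral promoter (Isg15), a spaced pair (Ifit3), the member with the largest genotype difference (Bst2), a guanylate-binding protein (Gbp2) and class I promoters with and without a match (B2m and Tap1).
Isg15 (chr4:156200819-156200978, minus strand): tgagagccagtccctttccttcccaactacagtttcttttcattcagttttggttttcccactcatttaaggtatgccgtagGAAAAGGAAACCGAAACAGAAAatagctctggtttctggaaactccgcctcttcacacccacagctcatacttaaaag
Ifit3 (chr19:34583369-34583528, plus strand): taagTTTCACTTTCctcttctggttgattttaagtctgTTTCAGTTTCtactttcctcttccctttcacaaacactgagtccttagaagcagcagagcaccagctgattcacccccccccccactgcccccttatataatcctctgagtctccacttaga
Bst2 (chr8:71537473-71537632, minus strand): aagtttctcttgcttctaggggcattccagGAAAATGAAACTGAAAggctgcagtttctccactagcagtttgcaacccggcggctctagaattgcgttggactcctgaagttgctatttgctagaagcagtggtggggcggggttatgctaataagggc
Gbp2 (chr3:142620503-142620662, plus strand): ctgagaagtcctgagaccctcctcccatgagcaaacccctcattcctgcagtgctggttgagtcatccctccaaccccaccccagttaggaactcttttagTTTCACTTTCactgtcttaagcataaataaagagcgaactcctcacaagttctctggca
B2m (chr2:122147527-122147686, plus strand): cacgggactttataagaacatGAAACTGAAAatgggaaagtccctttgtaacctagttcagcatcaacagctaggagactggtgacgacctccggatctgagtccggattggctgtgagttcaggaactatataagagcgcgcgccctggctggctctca
Tap1 (chr17:34187396-34187555, plus strand): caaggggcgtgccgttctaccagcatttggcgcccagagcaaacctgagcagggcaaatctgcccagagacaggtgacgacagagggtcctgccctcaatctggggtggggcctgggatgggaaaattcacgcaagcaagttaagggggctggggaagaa
Isg15 held 3 overlapping cores from 78 to 57 bases before the start, and Bst2 held 2 overlapping cores from 130 to 115 bases before it. In Ifit3 the pair was separate. Tap1 and Psmb9 lie head to head on chromosome 17, their RefSeq starts 225 bases apart, so the Tap1 stretch is upstream sequence for Psmb9 as well.

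The libraries held 19889910 to 25914325 reads in genes. Jag1 itself ranged from 9.86 to 16.9 FPKM in wild-type and from 9.42 to 19.6 FPKM in EC-Jag1KO libraries, so the whole-tissue level does not check an endothelial deletion. Smooth muscle and endothelial markers were present in each library, with 8 of 8 and 10 of 10 at a mean of 1 FPKM or more, while T, B and NK cell markers reached that mean in 0 of 12. Replicate 3 of both groups carried Xist and almost no reads from Y-linked genes (female) and the other 4 libraries the reverse (male). In bulk tissue, fewer cells of a type and less RNA per cell cannot be told apart.

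At rest, the 32 genes spanned a wide range of levels. B2m, the light chain of class I, averaged 489.7 FPKM over the 6 libraries and ranked 73rd of the 12165 genes that were tested, those averaging 1 FPKM or more. The heavy chain genes H2-D1 and H2-K1 averaged 248 and 199 FPKM, and Ifitm2 and Ifitm3, membrane proteins that block viral entry, averaged 246 and 121 FPKM. Ifi27, named for its induction by interferon, averaged 159 FPKM. At the other end Usp18, which removes ISG15 and restrains the type I receptor, stood at 0.741 to 1.58 FPKM on 31 to 72 reads, and Isg15, the ubiquitin-like modifier, averaged 2.89 FPKM on 33 to 74 reads. Rsad2 (viperin) ranged from 0.256 to 1.19 FPKM and Oas1a, an RNA-sensing synthetase, from 0.287 to 1.39 FPKM. Both of the latter fell under the mean of 1 FPKM, so 30 of the 32 members were tested.

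**Figure D1:**
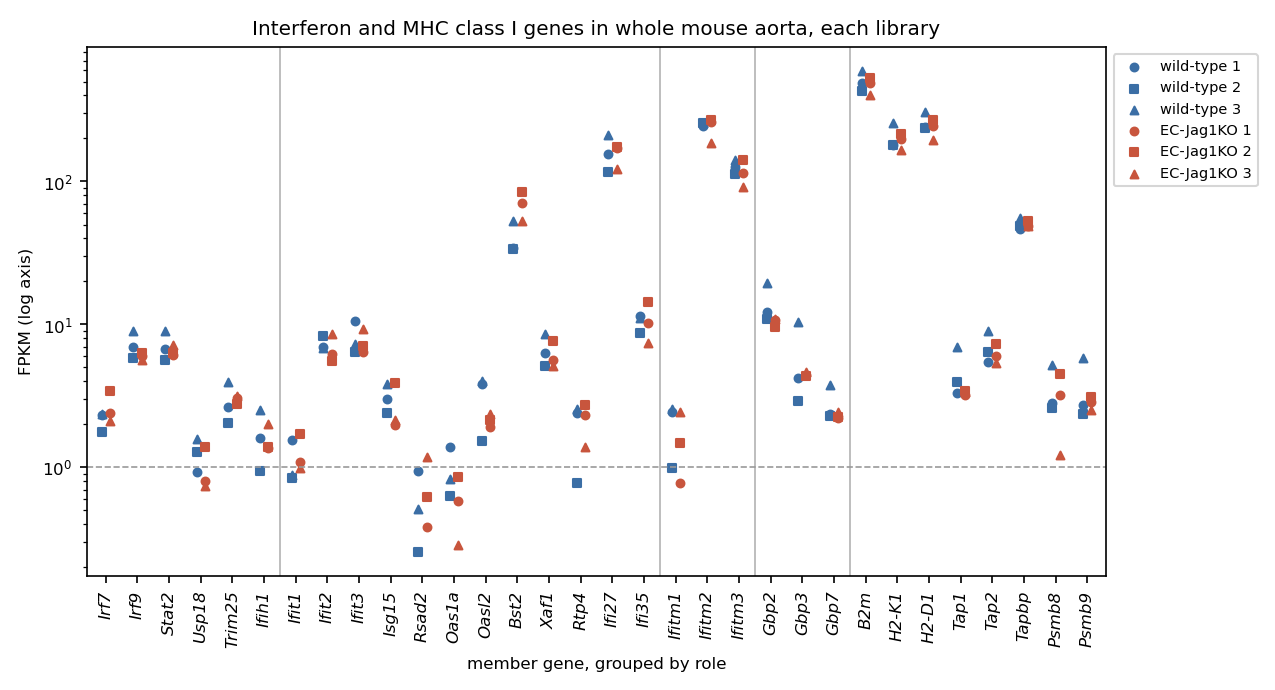
FPKM of the 32 member genes in each library on a log axis, blue for wild-type and red for EC-Jag1KO, with a marker shape for each replicate number; vertical lines separate roles and the dashed line marks 1 FPKM. B2m, the heavy chains, Ifitm2, Ifitm3 and Ifi27 stand above 90 FPKM in every library, and wild-type replicate 3 is the highest library in 20 of 30 tested members.

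No member differed between the genotypes after adjustment. In limma's moderated test on log2(FPKM + 1), with Benjamini-Hochberg adjustment over all 12165 tested genes, 0 of 30 members and 0% of all genes passed an adjusted p of 0.05; the smallest adjusted p among members was 0.490. At an unadjusted p under 0.05 there was 1 member, Bst2, higher in EC-Jag1KO, against 7.71% of all tested genes (4.25% higher and 3.46% lower). Groups did not overlap for 2 of 30 members, Bst2 (higher) and Gbp2 (lower), against 13.6% of all tested genes (6.84% higher and 6.73% lower). Neither share is above that of the other genes. The log2 fold change was negative for 25 members and positive for 5, with a median of -0.11 beside -0.00022 over all tested genes. The sign of that median turned in some fits with libraries left out. Each shift of the median given here was smaller than 0.23, the pooled within-genotype SD of the libraries' median member deviations. Without wild-type replicate 3 the member median was 0.041, with 17 members higher and 13 lower in EC-Jag1KO, and without both female libraries it was 0.10, with 21 higher and 9 lower. Without EC-Jag1KO replicate 3 it was -0.022 (14 higher, 16 lower).

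**Figure D2:**
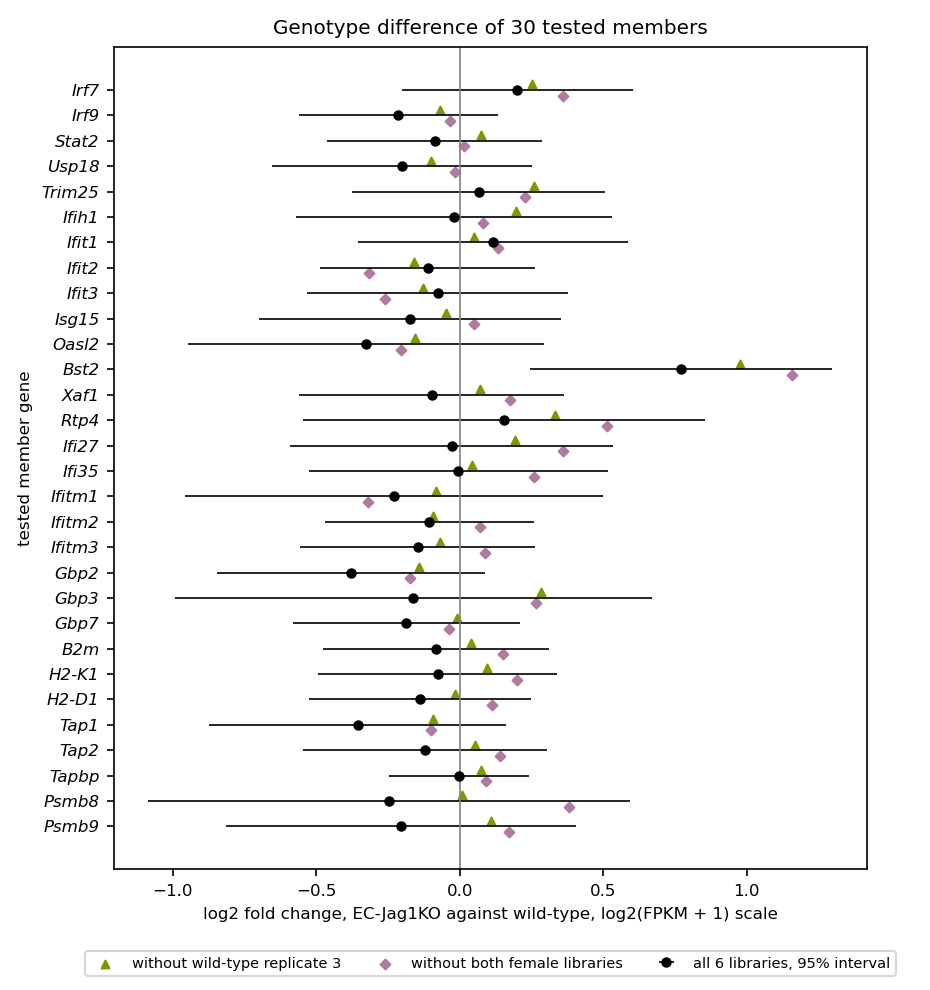
Log2 fold change of EC-Jag1KO against wild-type for the 30 tested members: black points with limma's 95% intervals for all 6 libraries, green triangles without wild-type replicate 3, purple diamonds without both female libraries. The interval excludes 0 for Bst2 alone, before any adjustment, and 27 of 30 triangles and 27 of 30 diamonds lie to the right of the black points. A triangle lies to the right where wild-type replicate 3 is above the mean of the other wild-type libraries on the log scale. In FPKM that library exceeded the mean of the others in 27 of 30 members, against 55.9% of all tested genes. The triangles are therefore no separate result, and the diamonds leave out the same library as well.

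Wild-type replicate 3 had the highest value of the 6 libraries in 20 of 30 members (66.7%), against 20.6% of all tested genes. By role, those 20 were 5 of 6 signalling, 3 of 3 guanylate-binding protein and 8 of 8 class I members. The rest were 3 of 10 antiviral and 1 of 3 Ifitm members. Of the antiviral members, 5 were highest in EC-Jag1KO replicate 2. Within the wild-type group replicate 3 was the highest in 26 of 30 (86.7%, against 43.6% of all genes). The members' median ratio of replicate 3 to the mean of the other 2 wild-type libraries was 1.47, beside 1.03 for all genes. Wild-type replicate 2 was the lowest wild-type library in 24 of 30 (80%, against 34.5%). Among EC-Jag1KO libraries, replicate 2 was highest in 20 of 30 (66.7%, against 34.9%) and replicate 3 lowest in 17 (56.7%, against 39.2%). These shares describe 6 libraries and carry no test.

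**Figure D3:**
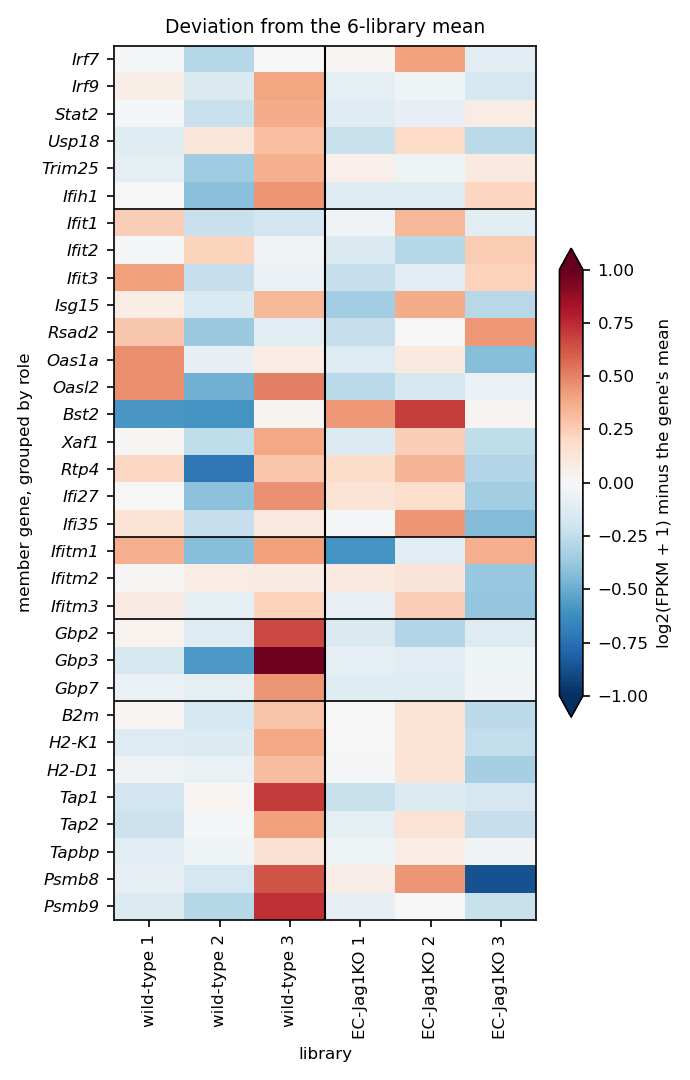
Deviation of each member from its own mean over the 6 libraries, in log2(FPKM + 1), libraries in columns and genes in rows grouped by role; red is above the mean and blue below, and the colour scale ends at 1 and -1. The column of wild-type replicate 3 is red through the guanylate-binding protein and class I rows, and the Bst2 row runs from -0.58 and -0.60 in wild-type replicates 1 and 2 to 0.43 and 0.69 in EC-Jag1KO replicates 1 and 2.

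Signalling and regulatory members showed no difference beyond replicate spread: 0 of 6 passed, with 4 lower, 2 higher and a median log2 fold change of -0.054. Stat2, the type I interferon signal transducer and the most abundant of them, measured 6.72, 5.67 and 9.05 FPKM in wild-type and 6.16, 6.36 and 7.21 FPKM in EC-Jag1KO libraries. The wild-type libraries enclosed the EC-Jag1KO ones, and the log2 fold change was -0.087 (SE 0.16). Irf9, the DNA-binding partner of STAT2, measured 6.91, 5.81 and 8.93 against 6.04, 6.32 and 5.67 FPKM. Its log2 fold change of -0.21 (95% interval -0.56 to 0.13) was the largest in size of the 6, and the groups overlapped. Irf9 overlaps Rnf31 by 123 bases on the same strand. Irf7, the factor that amplifies type I interferon production, lay the other way at 2.33, 1.76 and 2.37 against 2.41, 3.44 and 2.10 FPKM, with EC-Jag1KO replicate 2 the highest and a log2 fold change of 0.20 (interval -0.20 to 0.60). Usp18 had a log2 fold change of -0.20, Trim25, a ubiquitin ligase for the RNA sensor RIG-I, 0.067, and Ifih1, the RNA sensor MDA5, -0.021.

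Of the antiviral effectors, Bst2 stood apart. Bst2 (tetherin, a membrane protein that holds budding virus particles on the cell; minus strand of chromosome 8, 71534264 to 71537437 in mm10) measured 34.2, 33.9 and 52.75 FPKM in wild-type and 70.4, 84.4 and 52.78 FPKM in EC-Jag1KO libraries, on 618 to 1283 reads. The groups did not overlap, but replicate 3 of both groups stood level, and the distance between genotypes lay in replicates 1 and 2. The means were 40.3 ± 10.8 and 69.2 ± 15.9 FPKM (SD, n = 3 each), a ratio of 1.72. The log2 fold change was 0.77 with an SE of 0.22 and a 95% interval from 0.24 to 1.30. The unadjusted limma p was 0.0103 and the p adjusted over all genes 0.490. The exact two-sided permutation test gave p = 0.1, the smallest that 3 against 3 allows and the value that any separate groups give. Without both female libraries the ratio of means was 2.27, the log2 fold change 1.16 and the limma adjusted p 0.0775. With each library left out in turn the log2 fold change lay between 0.62 and 0.98.

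Bst2 is also a marker of plasmacytoid dendritic cells. The other markers of that cell stood low: Siglech, its defining surface lectin, at 0.761 to 1.14 FPKM, and Ccr9, Spib and Ly6d at 0 to 0.209 FPKM over the 6 libraries. Tcf4, which many cells express, ranged from 6.89 to 9.35 FPKM. Siglech was 0.846, 0.882 and 0.761 FPKM in wild-type and 1.11, 0.808 and 1.14 FPKM in EC-Jag1KO libraries, so 2 of 3 EC-Jag1KO libraries stood above every wild-type one, and EC-Jag1KO replicate 2, where Bst2 peaked, did not. The part of plasmacytoid dendritic cells in the Bst2 level was not tested.

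The other antiviral genes showed no separation of the groups. Of the 10 tested, Bst2 included, 0 passed after adjustment, 7 had negative and 3 positive log2 fold changes, and the median log2 fold change was -0.052. Ifi27, the most abundant of them, measured 155, 116 and 213 FPKM in wild-type and 171, 175 and 122 FPKM in EC-Jag1KO libraries. The wild-type libraries alone spanned a 1.83-fold range that took in all 3 EC-Jag1KO values, and the log2 fold change was -0.028 (interval -0.59 to 0.53). Isg15 measured 3.02, 2.42 and 3.81 against 1.99, 3.92 and 2.14 FPKM, and EC-Jag1KO replicate 2 held both the highest Isg15 and the highest Bst2 value. Ifit1, Ifit2 and Ifit3, neighbouring genes on chromosome 19 for proteins that bind foreign RNA, peaked in different libraries. Ifit3 was highest in wild-type replicate 1 at 10.6 FPKM, Ifit2 in EC-Jag1KO replicate 3 at 8.57 FPKM and Ifit1 in EC-Jag1KO replicate 2 at 1.70 FPKM. Their log2 fold changes were -0.077, -0.11 and 0.12. Oasl2, a protein related to the oligoadenylate synthetases, had the most negative value of the role at -0.33 (interval -0.95 to 0.29; -0.65 without wild-type replicate 2 and -0.16 without wild-type replicate 3), from 3.86, 1.53 and 4.01 FPKM against 1.93, 2.16 and 2.37 FPKM. Xaf1 (an XIAP-associated factor), Rtp4 (a receptor transporter protein) and Ifi35 had log2 fold changes of -0.098, 0.15 and -0.0042. With 14 reads at the lowest for Oas1a and 15 for Ifitm1, counting error limits the low members.

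Among the Ifitm genes 0 of 3 passed, and all 3 had negative log2 fold changes, with a median of -0.15. Ifitm2 measured 246, 257 and 258 FPKM in wild-type and 261, 267 and 187 FPKM in EC-Jag1KO libraries. It was even in 5 libraries and low in EC-Jag1KO replicate 3, which set the sign of its log2 fold change of -0.11 (0.059 without that library). Ifitm3 was also lowest in EC-Jag1KO replicate 3 but varied more among the other libraries, at 127, 113 and 141 against 114, 142 and 91.5 FPKM (log2 fold change -0.15, or 0.011 without EC-Jag1KO replicate 3). Ifitm1, the least abundant, had the largest difference at -0.23, on 15 to 58 reads: 2.45, 0.993 and 2.56 FPKM against 0.777, 1.48 and 2.45 FPKM. These genes are close in sequence and read assignment between them is uncertain.

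The guanylate-binding proteins, GTPases that attack vacuoles of intracellular microbes and respond strongly to interferon gamma, were each highest in wild-type replicate 3. Gbp2 (plus strand of chromosome 3, 142620602 to 142638008 in mm10) measured 12.3, 10.9 and 19.5 FPKM in wild-type and 10.8, 9.59 and 10.9 FPKM in EC-Jag1KO libraries. The groups did not overlap (6.73% of all tested genes were separated in this direction), yet wild-type replicate 2 at 10.90 FPKM and EC-Jag1KO replicate 3 at 10.86 FPKM nearly met. The means were 14.2 ± 4.6 and 10.4 ± 0.71 FPKM (SD, n = 3 each), with a log2 fold change of -0.38 (SE 0.20), an unadjusted limma p of 0.0970 and an adjusted p of 0.706. The exact two-sided permutation test gave p = 0.1, again its smallest value and the one that separate groups give. Without wild-type replicate 3 the log2 fold change was -0.14. Gbp3 stood at 4.20, 2.91 and 10.4 FPKM against 4.46, 4.37 and 4.65 FPKM. Wild-type replicate 3 held 2.93 times the mean of the other wild-type libraries, and the 3 EC-Jag1KO libraries were nearly equal. The log2 fold change of Gbp3 was -0.16 and became 0.28 without that library. Gbp7 measured 2.36, 2.29 and 3.78 against 2.23, 2.24 and 2.43 FPKM, a log2 fold change of -0.19 and -0.011 without that library. In the deposited coordinates Gbp5 covers the whole of Gbp3 (13158 bases) and of Gbp7 (19746 bases) on the same strand, so reads may be shared.

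**Figure D4:**
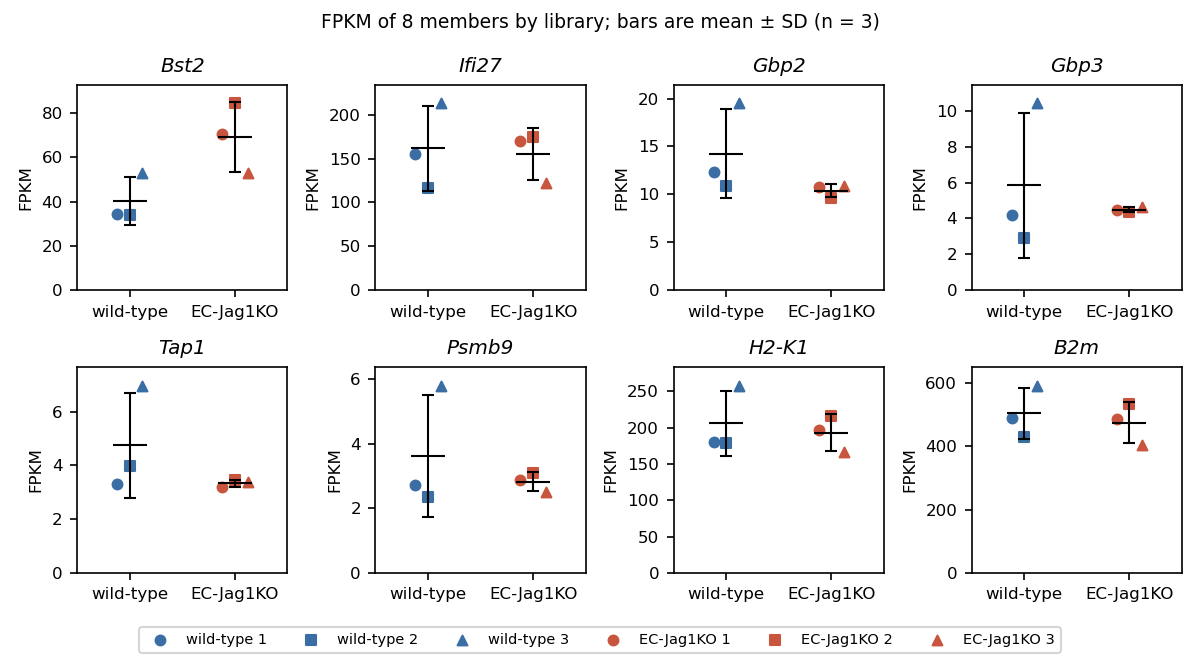
FPKM of 8 members by library on linear axes from 0, with markers for each replicate and black bars for the mean ± SD of 3 libraries. Bst2 is the gene with EC-Jag1KO above wild-type, its 2 triangles level at 52.75 and 52.78 FPKM; in the other 7 panels wild-type replicate 3 is the highest point.

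All 8 members of the class I presentation pathway were highest in wild-type replicate 3, and within EC-Jag1KO all 8 were highest in replicate 2. None passed the adjusted test, none separated the groups, and all 8 log2 fold changes were negative in the full set, with a median of -0.13. B2m measured 491, 429.9 and 592 FPKM in wild-type and 487, 534 and 404 FPKM in EC-Jag1KO libraries. Wild-type replicates 1 and 2 lay among the EC-Jag1KO values, and the log2 fold change was -0.084 (interval -0.48 to 0.31), or 0.038 without wild-type replicate 3. H2-K1 measured 180.1, 179 and 258 against 197, 217 and 166 FPKM, and H2-D1 239.7, 235 and 305 against 244, 270.2 and 195 FPKM. The heavy chains thus followed the order of B2m at the extremes, with wild-type replicate 3 on top and EC-Jag1KO replicate 3 at the bottom. Their log2 fold changes were -0.077 and -0.14, or 0.096 and -0.018 without wild-type replicate 3 and 0.027 and -0.0071 without EC-Jag1KO replicate 3, and reads between these near-identical genes are uncertain.

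Tap1, Tap2, Psmb8 and Psmb9 ranged more widely within wild-type, 1.64-fold to 2.46-fold from lowest to highest library, than H2-K1 (1.44-fold) and H2-D1 (1.30-fold). Tap1, a subunit of the peptide transporter, measured 3.30, 3.97 and 6.96 FPKM in wild-type and 3.19, 3.45 and 3.36 FPKM in EC-Jag1KO libraries. The EC-Jag1KO libraries were within 1.08-fold of each other, while wild-type replicate 3 held 1.92 times the mean of the other wild-type libraries. The log2 fold change was -0.36 (SE 0.22, interval -0.87 to 0.16; -0.094 without that library). Psmb9, the immunoproteasome subunit encoded head to head with Tap1, measured 2.73, 2.36 and 5.80 FPKM in wild-type and 2.87, 3.10 and 2.502 FPKM in EC-Jag1KO libraries, with wild-type replicate 3 at 2.28 times the other wild-type libraries. In the deposited gene coordinates, though not by their RefSeq starts, the 2 genes overlap by 212 bases on opposite strands. Reads there cannot be assigned without the strand. Psmb8, another immunoproteasome subunit, measured 2.82, 2.59 and 5.24 against 3.23, 4.48 and 1.21 FPKM, the widest EC-Jag1KO range of the 8 at 3.69-fold. Tap2 measured 5.48, 6.44 and 9.02 against 6.04, 7.32 and 5.41 FPKM. Tapbp (tapasin), which holds class I at the transporter, was the steadiest at 46.5, 48.6 and 55.8 against 48.6, 52.8 and 48.8 FPKM. Its log2 fold change was -0.0025 (SE 0.10). Zbtb22, averaging 13.3 FPKM, overlaps Tapbp by 3421 bases on the same strand, so reads may be shared.

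Without both female libraries, 7 of the 8 class I genes had a higher mean in EC-Jag1KO, Tap1 being the exception. The mean was higher in 21 of 30 members (70%) and in 54.2% of all tested genes. The ratio of means of the class I genes ranged from 0.913 to 1.43. In the same 4 male libraries, EC-Jag1KO exceeded wild-type without overlap for 11 of 30 members (24% of all tested genes) and lay below it for 3 (Ifit2, Gbp2 and Gbp7; 19.8% of all tested genes). The 11 comprised Bst2, Irf7, Trim25, Ifi27, Ifitm2, Gbp3, H2-K1, H2-D1, Tapbp, Psmb8 and Psmb9. The female pair lay the other way. Wild-type replicate 3 exceeded EC-Jag1KO replicate 3 in 26 of 30 members (86.7%, against 54.1% of all tested genes). The same held for 8 of 8 class I members. The members' median ratio was 1.55, beside 1.03 for all tested genes. With 1 female library per genotype, a sex difference in the genotype effect cannot be told apart from a difference between single libraries.

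Of other genes of the pathway, 120 were listed and 77 tested, and none passed the adjusted test. An unadjusted limma p under 0.05 was found for 8 of the 77, beside 7.71% of all tested genes. Of these 8, 7 were lower in EC-Jag1KO, beside 3.46% of all tested genes at that threshold and direction. Unlike among the members, both shares were above those of all tested genes. They carry no test. The median log2 fold change was -0.062. Of 9 interferon genes, 8 were listed at 0 in every library and Ifng reached 0.128 FPKM in 1. All 8 receptor and kinase genes were tested. Tyk2, the kinase on the type I receptor, measured 10.6 ± 1.12 against 8.48 ± 0.31 FPKM (SD, n = 3 each; log2 fold change -0.29, limma adjusted p 0.585), and Ifngr2, a chain of the interferon gamma receptor, 23.3 ± 2.05 against 18.9 ± 1.66 FPKM (-0.28, adjusted p 0.609). In both, the EC-Jag1KO libraries lay below the wild-type ones, as in 6.73% of all tested genes. The groups were separate in 3 of the 8, beside 13.6% of all tested genes. The partner kinase gene Jak1 was higher in EC-Jag1KO, as were 6.84% of all tested genes. It measured 25.8 to 26.2 FPKM against 26.3 to 32.1 FPKM (log2 fold change 0.14, limma adjusted p 0.796). Wild-type replicate 2 at 26.25 FPKM and EC-Jag1KO replicate 2 at 26.29 FPKM nearly met. Jak1 was chosen for mention from its values. Among transcription factors Irf1, a driver of class I and guanylate-binding protein genes, measured 11.1, 10.8 and 15.5 against 10.1, 10.3 and 8.41 FPKM (log2 fold change -0.33, limma adjusted p 0.663). The groups did not overlap for Irf1, with EC-Jag1KO lower, as in 6.73% of all tested genes. It was the only 1 of the 6 tested factors with separate groups.

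Of 35 further interferon-stimulated genes tested, the antiviral synthetase family gene Oas1b had the smallest p, at 2.44 ± 0.30 against 1.31 ± 0.21 FPKM (log2 fold change -0.57, limma adjusted p 0.402). Ifi204, a DNA-binding member of the p200 family, lay higher at 2.41 ± 0.63 against 3.95 ± 0.72 FPKM (0.54, adjusted p 0.524), and the nucleotide kinase gene Cmpk2 lower at 2.56 ± 0.15 against 1.81 ± 0.16 FPKM (-0.34, adjusted p 0.579). The groups did not overlap in these 3. Groups were separate in that list for 6 of 35 (2 higher and 4 lower). Over the 77 genes the count was 12 (3 higher and 9 lower). Of all tested genes, 13.6% were separate (6.84% higher and 6.73% lower). Calr, the class I chaperone calreticulin, measured 256 ± 21.3 against 203 ± 16.7 FPKM (limma adjusted p 0.585), the nuclease gene Isg20 5.83 ± 1.63 against 3.81 ± 0.84 FPKM (0.645), and Mavs, the adaptor of RNA sensors, 17.4 ± 1.90 against 15.98 ± 1.55 FPKM (0.858). The groups were separate for Calr, with EC-Jag1KO lower, and overlapped for Isg20 and Mavs.

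Wild-type replicate 3 was again the highest library, in 42 of these 77 genes (54.5%, against 20.6% of all tested genes). Chosen after their values were seen, the genes with the highest ratio of that library to the other wild-type libraries included the immunity-related GTPases Iigp1 (3.90), Igtp (3.44) and Irgm2 (3.03), Gbp4 (3.58), the class Ib genes H2-Q7 (3.08) and H2-Q6 (2.80), and Nlrc5 (2.72), the transactivator of class I genes.

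**Figure D5:**
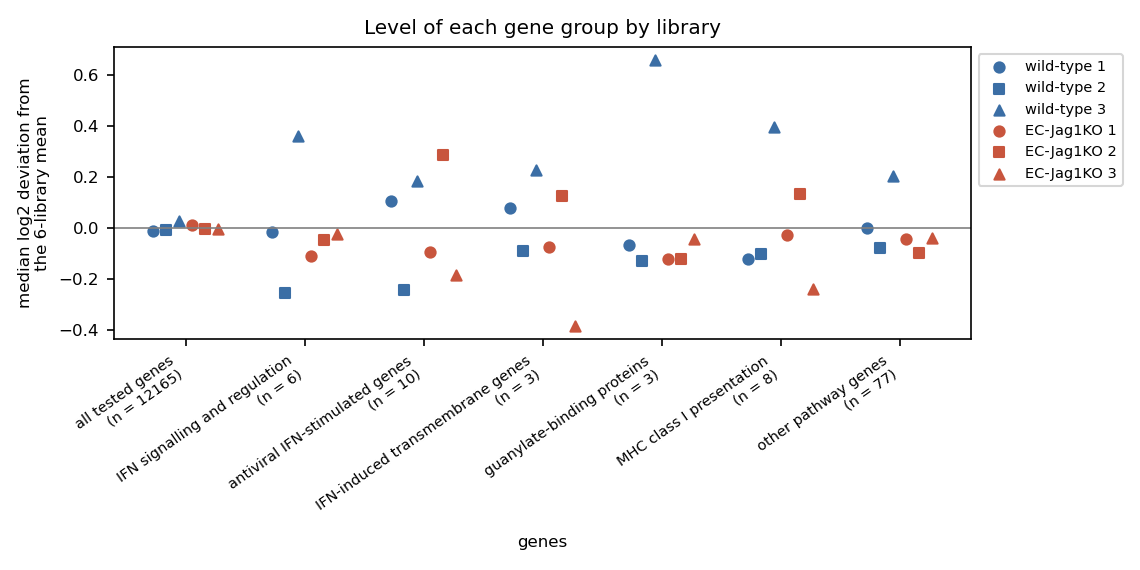
Median deviation from the 6-library mean (log2 FPKM + 1) for all tested genes, the 5 roles among the members and the other pathway genes, 1 point per library. Wild-type replicate 3 stands at 0.36 for signalling, 0.66 for guanylate-binding proteins and 0.40 for class I members, against 0.030 for all tested genes. For antiviral members it stands at 0.19, below EC-Jag1KO replicate 2 at 0.29, and for Ifitm members at 0.23.

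Cell type markers were set beside this pattern. The 7 pan-leukocyte markers summed to 26.2, 20.5 and 18.4 FPKM in wild-type and 20.1, 20.5 and 35.5 FPKM in EC-Jag1KO libraries, with the lowest sum in wild-type replicate 3 and the highest in EC-Jag1KO replicate 3. The macrophage sum was 213.8 to 276 FPKM in wild-type and 252 to 281 FPKM in EC-Jag1KO libraries (9 of 10 markers matched). The 12 T, B and NK cell markers summed to 2.86 FPKM at most. Neutrophil markers reached 68.1 FPKM in EC-Jag1KO replicate 3, against 0.414 to 8.95 FPKM elsewhere. The 10 endothelial markers summed to 316, 342 and 469 FPKM in wild-type and 446, 356 and 433 FPKM in EC-Jag1KO libraries. The sum was highest in wild-type replicate 3, as were 5 of 10 single markers, beside 20.6% of all tested genes. Of these 5, Pecam1 (229.9 against 228.5 FPKM in EC-Jag1KO replicate 3) and Kdr (4.05 against 3.93 FPKM in EC-Jag1KO replicate 1) nearly tied. Vwf, Cdh5, Egfl7, Emcn and Erg peaked in EC-Jag1KO libraries. The adipocyte sum was also highest there, at 1795 FPKM, and lowest in wild-type replicate 2, at 267 FPKM, against 790.4 to 1725 FPKM in the other 4. Only 3 of 6 single adipocyte markers were highest in wild-type replicate 3, Ucp1 among them at 263 FPKM against 144 FPKM in EC-Jag1KO replicate 1. Fabp4 (1216 against 1274 FPKM) and Plin1 (92.7 against 98.1 FPKM) were higher in EC-Jag1KO replicate 1. Smooth muscle markers summed to 17167 to 17949 FPKM in wild-type and 14374 to 17463 FPKM in EC-Jag1KO libraries. Fibroblast markers summed to 1152 to 1402 FPKM and 1263 to 1379 FPKM. The 5 erythrocyte markers differed widely, at 1518, 740 and 1227 FPKM in wild-type and 190, 443 and 918 FPKM in EC-Jag1KO libraries. EC-Jag1KO replicates 1 and 2 lay below every wild-type library, and EC-Jag1KO replicate 3 lay above wild-type replicate 2. The part of leukocyte, endothelial, adipocyte, erythrocyte or other cell content in the members' levels was not tested.

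Members with and without the ISRE letters had close medians. The 12 tested members with the core in the promoter window had a median log2 fold change of -0.096 and the 14 tested members without it -0.12. The median ratio of wild-type replicate 3 to the other wild-type libraries was 1.43 with the core and 1.46 without it. Among the genes whose promoters are printed above, Gbp2, B2m and Isg15 carry the core and Tap1 does not, and wild-type replicate 3 was the highest wild-type library in all 4; Ifit3, with a pair of cores, was highest in wild-type replicate 1.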

How the data were processed

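RNA from whole mouse aorta was measured in 6 libraries, 3 per genotype. The authors deposited FPKM values for 35275 genes with each gene's length and mm10 coordinates, per the file headers. The submitters' processing notes list STAR, HTSeq and edgeR with no role or version. Strand setting and annotation release were not given in the sources used here. Values times gene length were whole reads in 211650 of 211650 cases (within 0.05 of a whole number), which gave the read numbers.

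Genes averaging 1 FPKM or more (12165) were analysed as log2(FPKM + 1), a scale that understates changes of low genes. They were fitted in R 4.3.3 by limma 3.58.1 on genotype alone, letting the prior variance follow expression level. Two-sided p-values were adjusted by Benjamini-Hochberg over every tested gene, at a threshold of 0.05. It was first tested on simulated data. Single genes were also compared with exact permutation tests in scipy 1.17.1. Promoters came from RefSeq (GRCm38.p6); 21 of 32 members have the same coordinates in GENCODE M21 as in the table. Plots used matplotlib 3.10.9.

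The members, lists and tests were chosen with earlier results of these data known. The naming rule gave every member at an unadjusted p under 0.05 or with separate groups, and in each role the most abundant and the most different member. Other members' values were added after they were seen. In each further list, up to 3 genes at an unadjusted p under 0.05, or else the gene of smallest p, were named. Of the marker genes, Adgre1 was not matched. Alternatives covered the pseudocount, filter, scaling, variance trend, replicate number, sex, recovered reads in limma voom, and each library left out. Same-numbered libraries were not treated as pairs.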

Additional observations from a re-analysis of the deposited data

How the results depend on the processing

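No member passed the adjusted threshold in any of the 16 alternative settings, and no other pathway gene did. Over all genes, 1 (RP24-479J14.1) passed with sex as a covariate, 2 (Gm10020 and Gm6472) without both female libraries, and 0 to 4 with single libraries left out (4 without EC-Jag1KO replicate 1). Members at an unadjusted p under 0.05 numbered 2 with sex as a covariate (Bst2 and Gbp2) and 1 to 3 with single libraries left out (3 when wild-type replicate 2 was dropped and 2 when replicate 1 was). The member median ranged from -0.22 to 0.041 over those fits. With the replicate number as a block, 0 genes and 0 members passed and Bst2 had a limma adjusted p of 0.639; same-numbered libraries had deviations correlated at 0.055, 0.051 and -0.050 across genes, and no library correlated best with its own number.

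The sign of 52 of 467 member fold changes turned under an alternative. Without both female libraries the log2 fold changes that turned were Stat2 0.016, Ifih1 0.083, Isg15 0.049, Xaf1 0.17, Ifi27 0.36, Ifi35 0.26, Ifitm2 0.072, Ifitm3 0.088, Gbp3 0.26, B2m 0.15, H2-K1 0.20, H2-D1 0.11, Tap2 0.14, Tapbp 0.091, Psmb8 0.38, Psmb9 0.17; fewer samples were fitted there. Tapbp turned to 0.0057 under quantile normalization and 0.0014 under median-ratio scaling, and Ifih1 to 0.020 in recovered reads. With single libraries left out, the members whose sign turned had the ranges Ifit3 -0.21 to 0.11, Ifi35 -0.23 to 0.21, Trim25 -0.10 to 0.26, Rtp4 -0.17 to 0.34, Stat2 -0.22 to 0.075, Ifih1 -0.23 to 0.20, Xaf1 -0.25 to 0.071, Ifi27 -0.24 to 0.19, Gbp3 -0.49 to 0.28, B2m -0.19 to 0.038, H2-K1 -0.16 to 0.10, Tap2 -0.26 to 0.055, Tapbp -0.056 to 0.073, Psmb8 -0.53 to 0.13, Psmb9 -0.40 to 0.11, Ifitm1 -0.50 to 0.012, Ifit1 -0.021 to 0.27, Ifit2 -0.27 to 0.0015, Ifitm2 -0.20 to 0.059, Ifitm3 -0.30 to 0.011. The other members kept their sign there, with the ranges Irf7 0.052 to 0.31, Irf9 -0.34 to -0.068, Usp18 -0.35 to -0.10, Isg15 -0.40 to -0.04, Oasl2 -0.65 to -0.16, Bst2 0.62 to 0.98, Gbp2 -0.54 to -0.14, Gbp7 -0.28 to -0.011, H2-D1 -0.24 to -0.0071, Tap1 -0.54 to -0.094. The cause was not tested. Low read numbers (31 to 72 for Usp18) limit the least abundant members.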
